A study of Mus musculus with 3 samples.

Results

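Rrm2, Dut, Pclaf and H2afz are the DNA synthesis genes of a MERFISH panel, chosen by name for their role, and they make up 4 of its 296 counted genes. MERFISH counts single RNA molecules inside tissue sections by giving each gene an optical code that is read in repeated imaging. The tissue was whole wild-type mouse embryos cut sagittally, with no treatment: 2 embryos at E9.5, 1 section each (E9.5 sections 1 and 2), and 1 embryo at E15.5, 1 section. The genes were read in segmented cells with at least 10 panel counts, in cell groups, at both stages and together with Top2a, the topoisomerase that untangles sister chromosomes before division. E15.5 has no replicate, and stage cannot be told apart from imaging run or embryo.

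A cell that copies its genome needs a supply of deoxynucleotides and of chromatin proteins, and many of the genes that provide them are transcribed mainly around S phase. Rrm2 encodes the small subunit of ribonucleotide reductase, the enzyme that makes deoxynucleotides. Dut encodes dUTPase, which removes dUTP so that uracil is not built into DNA. Pclaf encodes a small factor that binds the sliding clamp PCNA at replication forks, and H2afz encodes the histone variant H2A.Z, which is also deposited outside S phase. Top2a protein and RNA are highest in G2 and M phase, after the DNA has been copied.

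Promoter sequence is shown because these genes are compared below for whether they are seen in the same cells as Top2a. All 5 genes matched the RefSeq table of GRCm38.p6, where H2afz carries the symbol H2az1. The windows are the 150 bases before the annotated start, 5′ to 3′ on the strand of the gene: Rrm2 at chr12:24708104-24708253 (plus strand), Pclaf at chr9:65890173-65890322 (plus), H2afz at chr3:137864337-137864486 (plus) and Top2a at chr11:99024190-99024339 (minus, ending a few bases inside the annotated gene). Capitals mark CCAAT, the CHR letters TTTGAA or TTCGAA, and the E2F-type letters TTCCCGC or TTGGCGC or TTCGCGC or TTGCCGC, on either strand.
Rrm2: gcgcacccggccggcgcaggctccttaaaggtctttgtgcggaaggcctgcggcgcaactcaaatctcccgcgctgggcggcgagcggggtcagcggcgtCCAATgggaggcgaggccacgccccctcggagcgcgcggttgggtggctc
Pclaf: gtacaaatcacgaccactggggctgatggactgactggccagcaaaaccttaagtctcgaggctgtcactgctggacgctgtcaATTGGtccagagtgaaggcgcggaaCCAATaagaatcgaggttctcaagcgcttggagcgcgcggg
H2afz: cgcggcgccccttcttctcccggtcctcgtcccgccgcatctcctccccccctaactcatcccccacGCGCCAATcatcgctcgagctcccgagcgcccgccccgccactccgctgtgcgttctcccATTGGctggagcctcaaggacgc
Top2a: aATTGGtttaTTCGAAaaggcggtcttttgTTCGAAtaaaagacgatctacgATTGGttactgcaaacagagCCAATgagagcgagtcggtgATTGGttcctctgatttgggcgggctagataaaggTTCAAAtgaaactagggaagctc

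CCAAT was found once in the Rrm2 window, 2 times each in the Pclaf and H2afz windows and 4 times in the Top2a window. Of 32851 RefSeq windows of this length, 24.5% held CCAAT. The CHR letters were found 3 times in the Top2a window and in none of the 4 DNA synthesis windows; 9.70% of all windows held them. H2afz alone of the 5 held an E2F-type match, TTGGCGC on the minus strand, overlapping its first CCAAT; 5.47% of all windows held such a match. The Dut window, chr2:125247365-125247514, lies inside the annotated gene, held none of these motifs and is not printed. These matches describe letters only.

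E9.5 section 1 was small, with 830 kept cells and 68572 counts, against 6334 cells and 1034730 counts in E9.5 section 2 and 195915 cells and 21227345 counts at E15.5. Median counts per kept cell were 61, 128 and 84. The mean blank code, a barcode given to no gene, stood at 239, 149 and 159 CPM (counts over all panel counts, on the CPM scale) and the highest at 685, 380 and 449 CPM. Both E9.5 sections held areas where Gnas, a gene of most tissues, fell below 0.5 times its section median over the 50 nearest cells. In these areas lay 37.5% and 30.9% of kept cells. The E15.5 section was not searched for such areas. Cells were grouped by marker genes, of which the panel held 7 for endothelium, 4 for mesenchyme, 3 for neurons and 3 for neural progenitors (Fabp7, Slc1a3 and Vim). Of 21 erythroid markers listed, only Car2 and Bpgm were in the panel, so that group is called Car2 and Bpgm cells here; globin genes and Gata1 could not be checked. At E15.5 its cells had a median of 7 counts of those 2 genes and of 0 counts of the markers of every other class. At E9.5 its leading genes included Spint2 and Reln, which do not mark red cells, and the group is the same at both stages by rule only. E9.5 section 1 gave 14 endothelial, 49 mesenchyme, 5 neural and 2 Car2 and Bpgm cells, so its group values rest on very few counts.

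At E15.5 all 4 DNA synthesis genes were highest per panel count in Car2 and Bpgm cells. The excess was far larger for Rrm2 and Dut than for Pclaf and H2afz. Median panel counts per cell were 54 in Car2 and Bpgm cells and 132 in endothelial cells. Rrm2 and Dut stood 11.4-fold and 9.86-fold above endothelial cells, while Pclaf and H2afz stood 2.70-fold and 3.46-fold above them. Neurons split the genes another way: Rrm2 and Pclaf were lowest there, and Dut and H2afz were not. E15.5 levels come from 1 section, and their 95% intervals cover counting error only.

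Rrm2 stood at 8225 CPM in the 6293 Car2 and Bpgm cells (7948 to 8510, 3315 counts). Mural cells here are those with markers of smooth muscle and pericytes, and their leading genes at E15.5 included Myh11, Acta2, Rgs5 and Foxf1. Levels in the other groups were 738 CPM in Fabp7 and Slc1a3 cells, 718 in endothelial cells and 689 in macrophages. Then came mural cells at 682, mesenchyme at 524 and neurons at 226. From Fabp7 and Slc1a3 cells to mural cells, neighbours in that order overlapped in their intervals, whereas mesenchyme and neurons each lay below the group before them. The neuronal level lay above the mean blank code in neurons, 119 CPM, and under the highest one there, 449 CPM. The Rrm2 counts of neurons went with Top2a at an odds ratio of 3.91. Blank codes reached 1.99 over all cells and were not read within neurons. The fold over mesenchyme was 15.7 (14.7 to 16.7) and that over endothelial cells 11.4 (10.7 to 12.3). Thinning to 50 counts took in only cells with at least 50 counts and left out the rest. Of the cells so thinned, 31.4% of Car2 and Bpgm cells held an Rrm2 count, against 3.80% of endothelial cells and 1.10% of neurons. Over all cells of these groups, without thinning, the shares were 35.2%, 9.67% and 2.26%.

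Dut reached 12562 CPM in Car2 and Bpgm cells (12219 to 12913). All other groups lay within a narrow band: 1429 CPM in Fabp7 and Slc1a3 cells, 1412 in mural cells, 1385 in neurons, 1274 in endothelial cells, 1228 in macrophages and 1006 in mesenchyme. The first 3 of these overlapped in their intervals, as did endothelial cells and macrophages, and mesenchyme was lowest. Neurons therefore held 1.09 times the Dut level of endothelial cells, against 0.315 times for Rrm2.

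Pclaf was at 3459 CPM in Car2 and Bpgm cells (3280 to 3645), 1462 in mural cells, 1302 in macrophages, 1281 in endothelial cells, 1202 in mesenchyme, 1043 in Fabp7 and Slc1a3 cells and 300 in neurons. Intervals of neighbours overlapped from mural cells down to mesenchyme. Without thinning, 1167 of 6293 Car2 and Bpgm cells and 1294 of 6819 mural cells held a Pclaf count. Their median panel counts were 54 and 144. As with Rrm2, the neuronal level lay under the highest blank code. Fabp7 and Slc1a3 cells, which hold glia and the dividing progenitors of neural tissue, had 3.48 times the neuronal level of Pclaf (3.16 to 3.82) and 3.26 times that of Rrm2 (2.92 to 3.64).

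H2afz was at 3025 CPM in Car2 and Bpgm cells (2857 to 3199), 1252 in Fabp7 and Slc1a3 cells, 977 in neurons, 968 in mural cells, 874 in endothelial cells, 820 in macrophages and 707 in mesenchyme. Neurons, mural cells, endothelial cells and macrophages each overlapped with the next in that order. H2afz was 1.12 times as high in neurons as in endothelial cells and 1.28 times as high in Fabp7 and Slc1a3 cells as in neurons (1.19 to 1.38).

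Read against the panel, 37 of 294 genes (12.6%) stood at least 2-fold higher in Car2 and Bpgm cells than in each of endothelial, mesenchyme and neural cells at E15.5, and all 4 DNA synthesis genes were among them. By the least of these 3 folds Rrm2 ranked 2 and Dut 5 of the 294 genes, and H2afz and Pclaf ranked 20 and 26. Top2a, at 34099 CPM in these cells, ranked 15 with a least fold of 3.87. Of the cell cycle genes of the panel, 14 of 17 of G2 and M phase were at least 2-fold above both endothelial cells and mesenchyme. So were 2 of the 4 genes of cell cycle exit, Btg2, which slows division, at 8.10-fold and 14.9-fold, and Ccng1, a p53 target, at 4.54-fold and 3.09-fold, whereas the inhibitors Cdkn1a and Cdkn1c lay at 0.548 and 0.259 times the endothelial level. The S phase list held 5 panel genes, the 4 DNA synthesis genes and Hmgb2, so it adds only Hmgb2 to the values above. Hmgb2, a chromatin protein gene also on the G2 and M phase list, lay at 0.815 times the endothelial level and 0.706 times that of mesenchyme. Neurons lay at least 2-fold under endothelial cells, mesenchyme and Fabp7 and Slc1a3 cells for 81 of 279 genes (29.0%), which included Rrm2, Pclaf and Top2a but neither Dut nor H2afz. In that list of 17 genes of G2 and M phase, 16 were at least 2-fold lower in neurons than in endothelial cells, with a median ratio of 0.182.

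**Figure D1:**
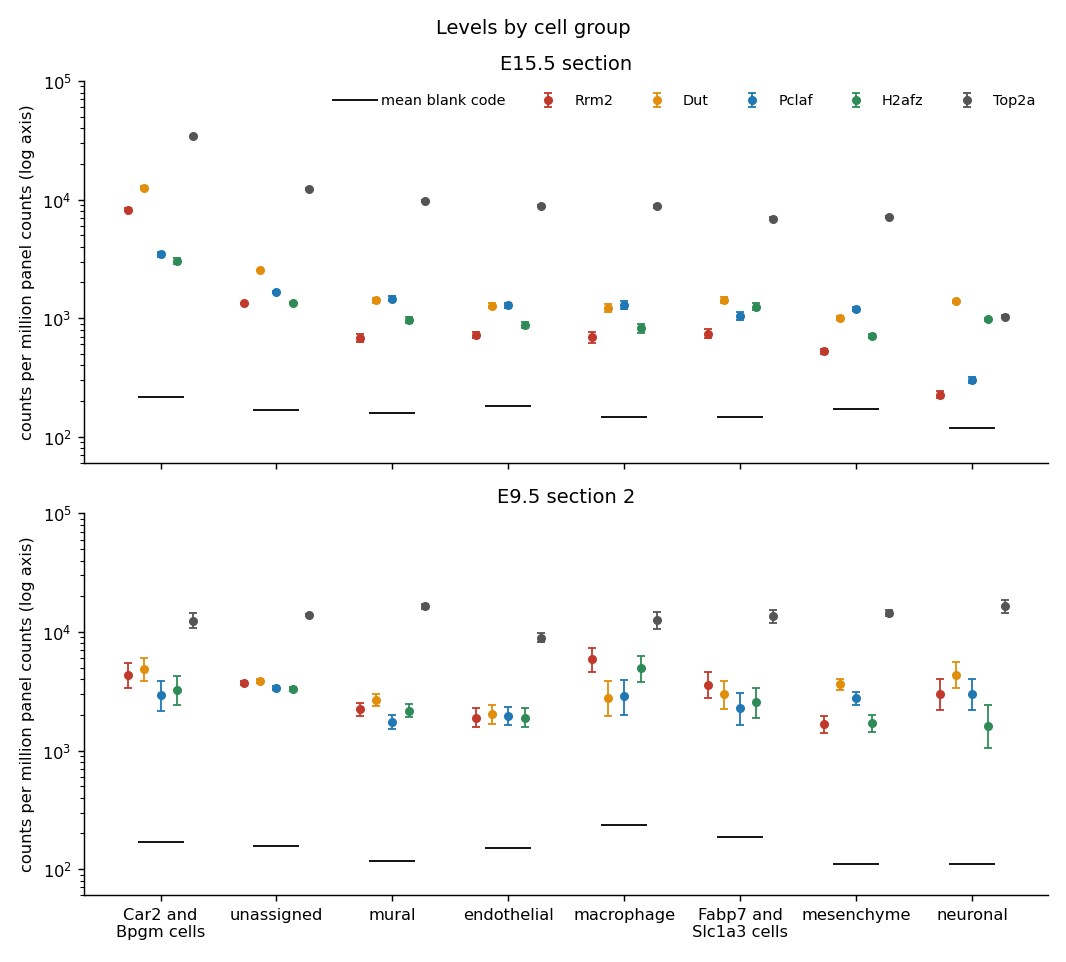
Levels of Rrm2, Dut, Pclaf, H2afz and Top2a by cell group, in CPM on a log axis, for the E15.5 section (top) and E9.5 section 2 (bottom). Points are sums over all cells of a group, bars are 95% Poisson intervals, and black lines are the mean blank code; at E15.5 Rrm2 and Dut stand at 8225 and 12562 in Car2 and Bpgm cells and Rrm2 and Pclaf at 226 and 300.0 in neurons, where the mean blank code is at 119.

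At E9.5 the groups were closer together. In E9.5 section 2 Rrm2 was at 4344 CPM in the 91 Car2 and Bpgm cells, 3580 in Fabp7 and Slc1a3 cells, 1898 in endothelial cells and 1668 in mesenchyme. Dut was at 4834, 2983, 2023 and 3617 CPM in the same groups, Pclaf at 2937, 2278, 1961 and 2761, and H2afz at 3243, 2549, 1898 and 1690. Car2 and Bpgm cells over endothelial cells came to 2.29-fold for Rrm2 (1.68 to 3.09), 2.39-fold for Dut (1.78 to 3.18), 1.71-fold for H2afz (1.21 to 2.38) and 1.5-fold for Pclaf (1.05 to 2.10). For each of the 4 genes this counting interval lay below that of the same ratio at E15.5. Macrophages, 62 cells, had the highest Rrm2 and H2afz of that section, 5870 and 4943 CPM, and overlapped with Car2 and Bpgm cells in their intervals. Of these 62 cells, 43 held only the 3 marker counts that a class needs, and a stricter gate kept 1 macrophage. Areas of low Gnas held 54.8% of the 62, against 30.9% of all kept cells of the section. In E9.5 section 1 the 2 Car2 and Bpgm cells held 299 counts, of which 1 was Dut and none Rrm2, Pclaf or H2afz.

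No DNA synthesis gene passed the edgeR test of Car2 and Bpgm cells against the other 3 groups over 12 sums of 3 sections, where 4 of 296 genes (1.35%) were called higher at an adjusted p under 0.05. The estimates were 2.29 ± 0.82 (log2, SE) for Rrm2 (adjusted p = 0.122), 1.96 ± 0.79 for Dut (0.163), 0.92 ± 0.75 for Pclaf and 0.89 ± 0.72 for H2afz (both 0.516). Before adjustment p was under 0.05 for 2 of the 4, Rrm2 (0.00535) and Dut (0.0132), and for 17.2% of the panel. DESeq2 called these 2 genes, with 2.16 (adjusted p = 0.0298) and 1.93 (adjusted p = 0.0362). Left without E9.5 section 1, the edgeR estimate for Rrm2 was 3.08, with an adjusted p of 0.0114. In the same edgeR fit 0 of 4 DNA synthesis genes were called for endothelial cells (19 of 296 genes called higher, 6.42%), mesenchyme (8.11% higher, 0.676% lower) or neural cells (4.05% higher); none had an unadjusted p under 0.05 there, as 14.5%, 20.9% and 12.8% of the panel had, and DESeq2 called none of them.

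The test of whether the difference itself changed with stage gave 4.27 ± 1.30 for Rrm2 in Car2 and Bpgm cells (log2, edgeR, unadjusted p = 0.00103, adjusted p = 0.0600), 3.38 ± 1.33 for Dut (0.195), 2.72 ± 1.34 for Pclaf (0.330) and 2.26 ± 1.32 for H2afz (0.428). None passed, with 2 of 296 genes (0.676%) called higher. Without adjustment Rrm2, Dut and Pclaf had p under 0.05, as did 14.2% of the panel, and DESeq2 called Rrm2, at 3.94 (adjusted p = 0.0275). These estimates take in the sum of 2 cells in E9.5 section 1, which had no Rrm2 count, and cannot be refitted without either E9.5 section, since no residual degree of freedom is left. In the same edgeR test none of the 4 genes passed for endothelial cells, mesenchyme or neural cells, where 0.338%, 0% and 0% of genes were called; none had an unadjusted p under 0.05 (4.05%, 8.78% and 11.8% of the panel) and DESeq2 called none.

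In the E15.5 section Rrm2 and Dut were high where Car2 and Bpgm cells were common. The section was divided into 860 square tiles of 200 position units (the headers name no unit) with at least 20 kept cells. In the 20 tiles where Car2 and Bpgm cells made up 30% or more, these cells held Rrm2 at 9684 CPM and Dut at 12133. In the 92 tiles with 10 to 30% they held 9094 and 14515 CPM, in 101 tiles with 1 to 10% they held 3109 and 6413, and in the 647 tiles with under 1% they held 878 and 2067 CPM, the last on 17 and 40 counts. Cells of the same marker group thus held less Rrm2 and Dut in tiles with under 10% of such cells than in tiles with more. The grouped cells also differed in Car2 itself, at 134908, 117486, 47782 and 16947 CPM in the same order of tiles. Their Bpgm was at 28572, 22654, 24014 and 25886 CPM. Whether the same kind of cell joined the group in all tiles was not tested. High levels also lay elsewhere: 27 tiles with under 1% of such cells, picked for Rrm2 of at least 3000 CPM, held Dut at 4046 CPM, against 1455 in the other 620.

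Unassigned cells and most other marker groups in the tiles rich in Car2 and Bpgm cells had higher values too. Unassigned cells in tiles with 30% or more held Rrm2 at 9675 CPM, Dut at 12441 and Car2 at 119413, against 748 and 1717 CPM of Rrm2 and Dut in tiles with under 1%. They numbered 3284, against 1643 Car2 and Bpgm cells, which held Rrm2 at 9684 CPM and Car2 at 134908 there. Their Bpgm was at 1320 CPM against 28572, and the group rule asked for counts of both genes. Whether these unassigned cells are the same kind of cell was not tested. Endothelial cells in tiles with 10 to 30%, 153 in number, held Rrm2 at 3264 CPM and Dut at 4930, against 643 and 1100 CPM in tiles with under 1%; their Car2 was at 25901 against 944 CPM. Macrophages there held Rrm2 at 2364 against 603 CPM and Dut at 4658 against 1098, with Car2 at 21065 against 473. Mesenchyme cells held Rrm2 at 590 CPM, on 17 counts, against 521, Dut at 1701 against 987 and Car2 at 2951 against 510. Stab2, a scavenger receptor known from liver sinusoids, stood at 16596 CPM in those endothelial cells and at 1599 CPM in the Car2 and Bpgm cells of the same tiles. The part that counts crossing drawn cell borders have in these values was not tested.

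Across the 860 tiles Dut followed Rrm2 with a Pearson r of 0.921, Pclaf followed Top2a with 0.844, and H2afz followed Top2a with 0.687, Pclaf with 0.649 and Rrm2 with 0.518. In the 748 tiles with under 10% Car2 and Bpgm cells, r was 0.634 for Dut with Rrm2, 0.835 for Pclaf with Top2a, and for H2afz 0.688 with Top2a and 0.630 with Rrm2. The value for Dut with Rrm2 was thus lower without the tiles rich in Car2 and Bpgm cells, and that for Pclaf with Top2a was nearly the same. Tiles share a section and a depth, and r is given as a description.

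**Figure D2:**
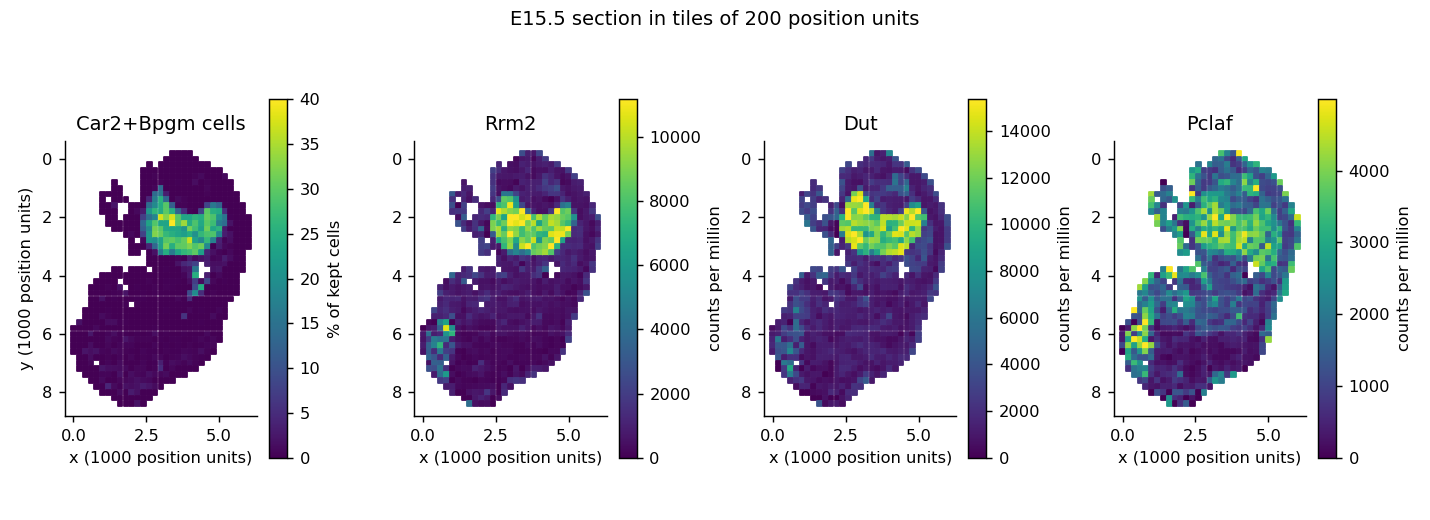
The E15.5 section in tiles of 200 position units, both axes in units of 1000, coloured by the share of kept cells that are Car2 and Bpgm cells (in percent) and by the levels of Rrm2, Dut and Pclaf (CPM). Rrm2 and Dut are high in the tiles rich in Car2 and Bpgm cells, Rrm2 also in 27 tiles with under 1% of them (at least 3000 CPM), and Pclaf is high there and in patches elsewhere.

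From E9.5 to E15.5 Rrm2, H2afz and Pclaf stood lower over all kept cells, by more than 2-fold against each E9.5 section, and Dut did not differ in 1 direction. Rrm2 went from 4885 CPM in E9.5 section 1 and 3282 in section 2 to 1044 at E15.5, which is 0.214 and 0.318 times. H2afz went from 4579 and 2924 to 1160 CPM, 0.253 and 0.397 times. Pclaf went from 2975 and 3010 to 1320 CPM, 0.444 and 0.439 times. Dut was at 2085 and 3593 and then 2109 CPM, so that the E15.5 level lay between the E9.5 sections, and so did that of Top2a, at 4987 and 13866 and then 9379 CPM. Thus 3 of 4 genes were at least 2-fold lower against both E9.5 sections, beside 43 of the other 292 panel genes (14.7%); 16.1% were at least 2-fold higher.

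The share of cells with a count moved the same way. Cells with at least 50 counts, thinned to 50, numbered 494 and 5073 in the E9.5 sections and 136001 at E15.5. Of these cells, Rrm2 was seen in 21.9% and 16.8% in the E9.5 sections and in 4.81% at E15.5. The shares were 22.7%, 15.7% and 5.63% for H2afz, 14.0%, 14.5% and 6.19% for Pclaf and 9.31%, 14.7% and 9.46% for Dut. Unthinned, over all kept cells, Rrm2 was seen in 25.2%, 33.4% and 9.06% of cells and Dut in 13.5%, 33.3% and 16.5%.

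The areas of low Gnas carried part of these E9.5 levels. Inside them H2afz was 2.65-fold and 2.14-fold higher than elsewhere in E9.5 sections 1 and 2, and Rrm2 1.44-fold and 2.24-fold. Dut was at 0.255 and 0.947 times, and Top2a at 0.318 and 0.749 times. The genes at least 2-fold higher inside were 25.0% and 18.6% of the panel in the 2 sections, so the rise of H2afz and Rrm2 there was shared by many genes. Without these areas Rrm2 was at 4346 and 2547 CPM in the E9.5 sections, H2afz at 3128 and 2313 and Pclaf at 2579 and 2663. The E15.5 section was left whole. Only Rrm2 was then at least 2-fold lower at E15.5 against both, beside 10.3% of the other panel genes (14.4% were higher). H2afz came to 0.371 and 0.501 times and Pclaf to 0.512 and 0.496 times. Dut, at 2640 and 3638 CPM without these areas, came to 0.799 and 0.580 times. Its E15.5 level then lay below both E9.5 sections, not between them as over all kept cells.

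**Figure D3:**
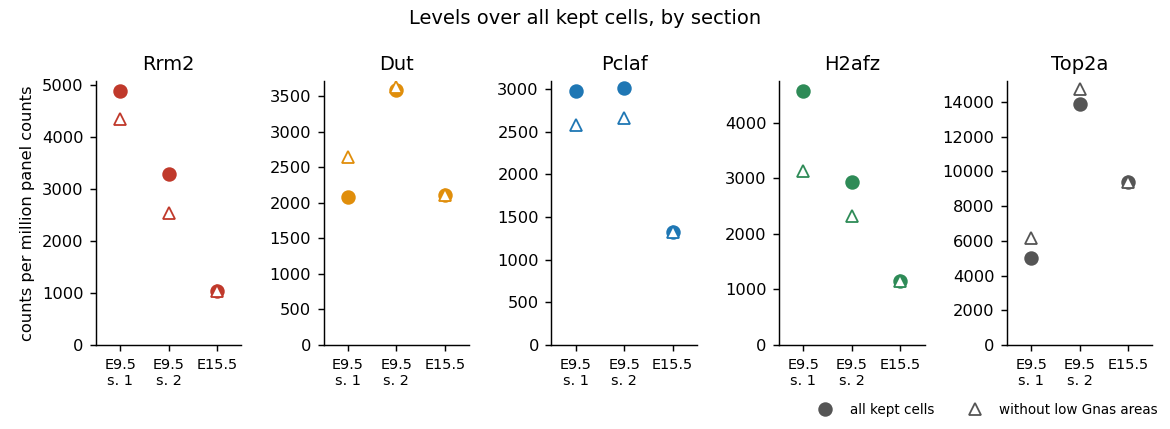
Levels of each gene over all kept cells of a section, in CPM on linear axes that start at 0, with (filled circles) and without (open triangles) the E9.5 areas of low Gnas. Rrm2, Pclaf and H2afz lie lower at E15.5 (1044, 1320 and 1160) than in both E9.5 sections. Top2a lies between them. Dut lies between them over all kept cells and below both without those areas.

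No DNA synthesis gene passed the edgeR test of stage, in which 28 genes were called higher at E15.5 (9.46%) and 16 lower (5.41%). Rrm2 had a TMM-scaled level of 4059 ± 1040 CPM at E9.5 (SD, n = 2) and 1050 CPM at E15.5, a log2 difference of -1.95 ± 0.87 (edgeR, unadjusted p = 0.0260, adjusted p = 0.130). It alone of the 4 had an unadjusted p under 0.05, as did 23.6% of the panel. H2afz differed by -1.67 ± 0.87 (adjusted p = 0.225), Pclaf by -1.17 ± 0.89 (0.461) and Dut by -0.43 ± 0.84 (0.823). DESeq2 called Rrm2 (-1.90, adjusted p = 0.00126), H2afz (-1.62, 0.00988) and Pclaf (-1.11, 0.0473). With 1 section at E15.5 the test has 1 residual degree of freedom, and exact permutation of the 3 sections gives no p smaller than 0.333. Of the panel lists, 2 of 17 genes of G2 and M phase fell in the edgeR test, the mitotic kinase gene Aurka by 2.09 on the log2 scale and Pimreg by 2.84 (both adjusted p = 0.0264). Of 4 genes of cell cycle exit, Cdkn1c, an inhibitor of cyclin-dependent kinases, rose by 1.92 (adjusted p = 0.00871). The median log2 difference was -1.17 over the 5 S phase genes, which are the 4 DNA synthesis genes and Hmgb2, and -0.15 over all genes.

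Within cell groups the same test called none of the 4 genes, and none had an unadjusted p under 0.05 or a call from DESeq2. In endothelial cells, where edgeR and DESeq2 each called 0 of 296 genes and 10.1% had an unadjusted edgeR p under 0.05, Rrm2 differed by -1.71 ± 1.40 (log2, adjusted p = 0.777), H2afz by -1.43 ± 1.37, Pclaf by -0.55 ± 1.33 and Dut by -0.46 ± 1.34. In E9.5 section 2 and at E15.5, endothelial Rrm2 was at 1898 and 718 CPM, and Dut at 2023 and 1274. In mesenchyme (0.338% called in each direction, 9.80% without adjustment) Rrm2 was at 1668 and 524 CPM and the estimate was -1.06 ± 1.26, while E9.5 section 1 had only 3 Rrm2 counts, at 268 CPM. Neural cells gave -2.47 ± 1.87 for Rrm2 (10.5% of genes called higher, 3.38% lower, 29.4% without adjustment). Car2 and Bpgm cells gave the opposite sign, 1.48 ± 1.32 for Rrm2 and 1.78 ± 1.26 for Dut (3.75% higher, 4.10% lower, 17.4% without adjustment). The neural sums held 5 Fabp7 and Slc1a3 cells and no neurons in E9.5 section 1, and 92 and 28 in section 2. At E15.5 they held 4979 Fabp7 and Slc1a3 cells and 36123 neurons. In the neural estimate, stage thus cannot be told apart from the share of neurons.

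At E15.5 each of the 4 genes was seen more often in cells that also held Top2a, and in the E9.5 sections only Dut was, by at least 2-fold in odds. Cells with many counts hold any pair of genes more often, so odds ratios were taken within narrow classes of the cell's other panel counts. At E15.5 the odds ratio with Top2a was 4.52 for Rrm2 (4.37 to 4.69), 4.48 for Pclaf (4.34 to 4.63), 2.79 for Dut (2.72 to 2.87) and 2.30 for H2afz (2.23 to 2.37). All 4 exceeded 2, as did 29 of 295 panel genes (9.83%); the median gene was at 1.15 and the 19 blank codes lay between 0.737 and 1.99. In E9.5 section 2 the values were 3.10 for Dut (2.67 to 3.60), 1.05 for Pclaf (0.919 to 1.21), 0.672 for H2afz (0.588 to 0.768) and 0.651 for Rrm2 (0.570 to 0.744), with 11.5% of genes at 2 or more. In E9.5 section 1 they were 3.56 for Dut (2.20 to 5.76), 1.23 for Pclaf, 1.11 for Rrm2 and 0.338 for H2afz (0.214 to 0.532), with 23.1% of genes at 2 or more. In cells thinned to 50 counts Dut was at 1.76 in E9.5 section 2, under 2, and at 4.70 in section 1. Taken within cell group as well as depth, the E15.5 values were 3.24 for Rrm2, 3.38 for Pclaf, 2.69 for Dut and 2.42 for H2afz.

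The areas of low Gnas held the lowest of the E9.5 values. Inside them in E9.5 section 2, Rrm2 had an odds ratio of 0.483 and H2afz of 0.530, against 0.873 and 0.880 in the other areas. Dut was at 4.98 inside and 2.40 outside. In E9.5 section 1 H2afz was at 0.230 inside and 0.527 outside. So H2afz was seen less often with Top2a in both E9.5 sections with and without those areas. Taken without classes of depth, the odds ratios in E9.5 section 2 were 1.49 for Rrm2 and 1.63 for H2afz, on the other side of 1.

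**Figure D4:**
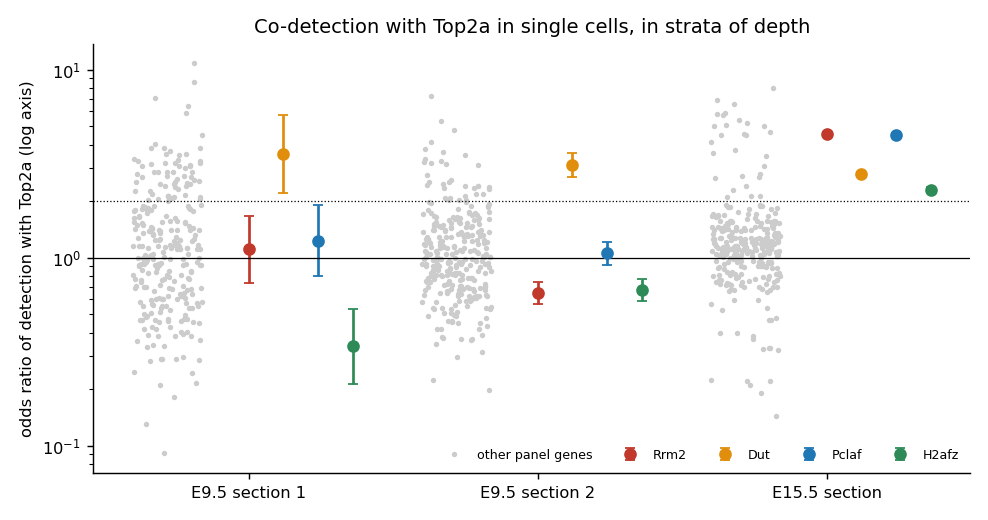
Odds ratio of a cell holding a count of Top2a given a count of each gene, on a log axis, within classes of the cell's other counts, for the 3 sections. Coloured points are Rrm2, Dut, Pclaf and H2afz with 95% intervals, grey points the other panel genes, and the dotted line marks 2; all 4 genes lie above it at E15.5 (2.30 to 4.52) and Dut alone in each E9.5 section.

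Within cell groups of the E15.5 section the 4 genes behaved differently from each other. In neurons, where Top2a was seen in 2205 of 36123 cells, the odds ratio was 5.59 for Pclaf (4.81 to 6.51) and 3.91 for Rrm2 (3.29 to 4.64), but 1.33 for Dut and 1.35 for H2afz. Of the neurons with a Pclaf count 32.3% held Top2a, against 11.8% of those with a Dut count. In Fabp7 and Slc1a3 cells the values were 4.35 for Pclaf, 4.19 for Rrm2, 2.65 for H2afz and 2.26 for Dut. In endothelial cells Pclaf was at 3.55 (3.11 to 4.06), Dut at 2.44, Rrm2 at 2.23 and H2afz at 1.95, and in mesenchyme Pclaf was at 3.02 (2.75 to 3.32) and the others between 1.86 and 2.02. Car2 and Bpgm cells, 67.7% of which held Top2a, gave 2.07 for Rrm2, 1.96 for Dut, 1.94 for H2afz and 1.71 for Pclaf. Pclaf thus had the highest value of the 4 in neurons, Fabp7 and Slc1a3 cells, endothelial cells, mesenchyme, mural cells (2.95) and macrophages (3.38), and the lowest in Car2 and Bpgm cells. Its interval overlapped with that of the next gene in Fabp7 and Slc1a3 cells, mural cells and macrophages. In Car2 and Bpgm cells it (1.44 to 2.04) overlapped with those of all the others. Among unassigned cells, 56.3% of kept cells, Rrm2 was highest at 3.83 and Pclaf was at 3.50. In the 326 mesenchyme cells of E9.5 section 2, Rrm2 was at 2.40 (1.07 to 5.37) and H2afz at 2.19 (1.04 to 4.62), above 1 although both were below 1 over all cells of that section.

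Counting how many of the 4 genes a cell held showed a contrast of stages over all kept cells. In E15.5 cells thinned to 50 counts, Top2a was seen in 21.7% of the 106927 cells with none of them, 42.6% of 23557 with 1, 65.9% of 4675 with 2 and 76.8% of 842 with 3 or 4. Endothelial cells went from 25.3% to 42.2%, 57.9% and 76.5%, the last of 17 cells, and neurons from 2.83% with none to 4.96% with 1 and 21.9% with 2. Car2 and Bpgm cells already held Top2a in 62.1% of cells with none of the 4, and in 77.7%, 79.0% and 81.6% of the others. In E9.5 section 2 the shares were 40.5%, 40.1%, 36.5% and 36.5%, and in section 1 17.7%, 15.1%, 17.6% and 18.2%, with no rise over all kept cells. In the endothelial cells of E9.5 section 2 Top2a was seen in 29.0% of 200 cells with none of the 4, in 34.4% of 61 with 1 and in 8 of 16 with 2, with overlapping intervals.

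**Figure D5:**
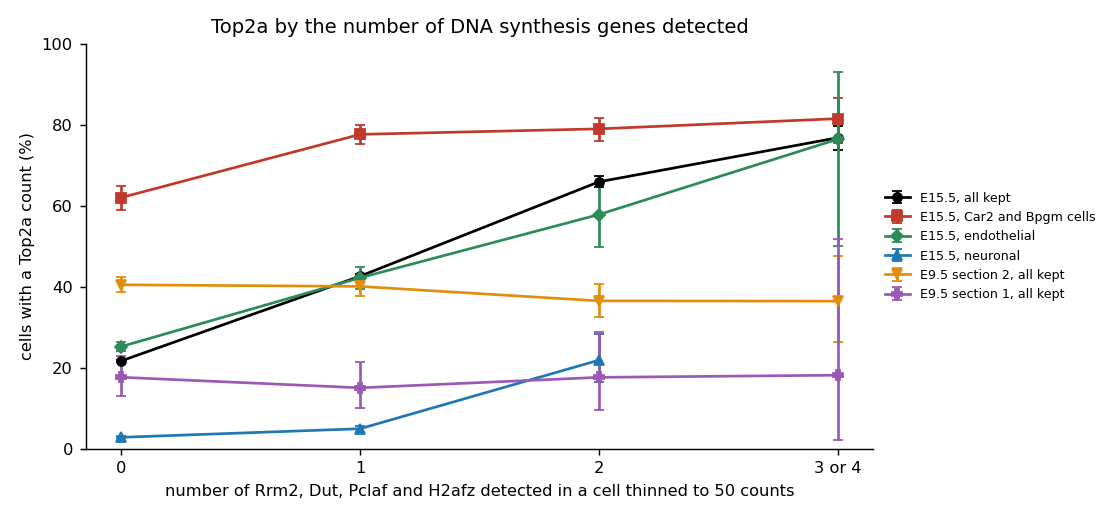
Percent of cells with a Top2a count (y axis) by how many of Rrm2, Dut, Pclaf and H2afz a cell holds (x axis), in cells thinned to 50 panel counts, with 95% binomial intervals. The E15.5 lines climb, from 21.7% to 76.8% over all kept cells, and both E9.5 lines stay level, near 40.5% and 17.7%.

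The genes were also compared with each other and with the rest of the panel by the same odds ratio. At E15.5 Rrm2 was most often seen with Car2 (5.28), Top2a (4.52) and Slc38a5, an amino acid transporter gene (4.23), and Dut with Car2 (3.93), Rrm2 (3.21) and Slc38a5 (2.88). Pclaf was most often seen with Top2a (4.48), the imprinted RNA H19 (4.20) and Aurka (2.98), and H2afz with Top2a (2.30), Rrm2 (2.25) and Aurka (2.21). These values describe 195915 cells of 1 section that share its depth and cell make-up. In E9.5 section 2 the Car2 values were 0.768 for Rrm2 and 1.12 for Dut, H19 was at 0.733 for Pclaf, and Aurka kept 2.11 for H2afz and 1.63 for Pclaf. Among the 4 genes themselves Rrm2 with H2afz had the highest odds ratio in both E9.5 sections, 2.39 and 2.00, and Rrm2 with Dut at E15.5, 3.21. Dut with H2afz was at 0.664, 0.935 and 2.00 in the 3 sections.

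Nuclear stain was a readout that took no part in choosing the genes. DAPI binds DNA, so its summed intensity in a cell rises with DNA content, with cell volume and with the part of the nucleus in the section. Whether the deposited intensity is such a sum is not stated in its header. At E15.5, cells with a count had a higher median DAPI intensity than cells without, at like depth: 1.59-fold for Rrm2, 1.32 for Dut, 1.30 for H2afz, 1.27 for Pclaf and 1.34 for Top2a. The median log2 ratio over 296 genes was 0.06. Per volume these ratios were 1.37, 1.24, 1.25, 1.24 and 1.29. In Car2 and Bpgm cells alone they were close to 1, at 1.08 for Rrm2, 1.01 for Dut, 1.00 for H2afz and 1.06 for Pclaf, and in endothelial cells alone 1.19, 1.19, 1.21 and 1.21. In the 2 E9.5 sections Rrm2 was at 1.26 and 1.28, H2afz at 1.36 and 1.21, Pclaf at 1.23 and 1.11, and Dut at 1.00 and 0.946. Gnas, at 0.530 and 0.705, lay on the other side of 1 in those sections, and the part of the areas of low Gnas in the E9.5 ratios was not tested.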

How the data were processed

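RNA of 296 genes was measured by MERFISH in 3 sections of mouse embryos. The authors deposited counts per segmented cell and gene, with 19 blank codes. Per the file headers, each cell's centre, volume and DAPI intensity were also given. The header names do not say whether that intensity is summed over the cell (a summed intensity grows with volume). Segmentation and decoding were run on the MERSCOPE platform per the labels. The submitters' processing notes name Scanpy and Seurat. How cells were outlined is not given in the sources used here. For volume and position the deposited headers state no unit. No cell identifier was shared between the sections.

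Cells with at least 10 panel counts were kept. The 4 genes and the marker and cell cycle lists were chosen with earlier results of these data known. A cell joined a class with at least 3 counts from at least 2 of its markers and a marker share at least 2 times that of its stage, and the class of the highest ratio where several qualified. Counts were summed per section and class, since cells are not replicates, and tested with edgeR 4.0.16 (quasi-likelihood, TMM, summed count of at least 30, Benjamini-Hochberg over all genes, called below 0.05), with the section as a block between classes. DESeq2 1.42.0 was an alternative. The series' design text says that the E9.5 sections come from different embryos. Odds ratios are Mantel-Haenszel ratios in steps of 0.25 in log2 of the other panel counts; intervals are 95% and cover counting error only. Named genes were the 4 genes and Top2a, the panel's cell cycle lists, and the 3 genes most often seen with each gene at E15.5. Scripts ran in Python 3.11.15 and R 4.3.3 and were tested on simulated data. No doublet caller was run; an alternative dropped cells larger than 3 times their section's median volume. Promoter windows come from RefSeq, GRCm38.p6.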

Additional observations from a re-analysis of the deposited data

Results flagged for a closer look

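The link of H2afz with Top2a differed between the stages in direction: the odds ratio of seeing both in a cell was 0.338 in E9.5 section 1, 0.672 in E9.5 section 2 and 2.30 in the E15.5 section. Each E9.5 section lay below 1 and the E15.5 section above it; the difference was not tested, since E15.5 has 1 section. The median DAPI intensity of cells with a Top2a count over cells without, at like depth, was 0.967 and 0.905 in the E9.5 sections and 1.34 at E15.5. That difference between the stages was not tested either.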

How the results depend on the processing

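Where a called count or value changed, the cause was not tested. For stage over all kept cells, 44 genes were called by edgeR; DESeq2 gave 92, an offset from cell volume 9, upper-quartile factors 27 and leaving out areas of low Gnas 22. For stage in endothelial cells 0 became 10 with likelihood assignment, 17 with a stricter gate and 1 without low Gnas. In Car2 and Bpgm cells 23 became 0 (DESeq2), 57 (likelihood; Dut was then called, 1 of the 4 genes), 61 (volume) and 36 (upper quartile). In mesenchyme 2 became 8 (DESeq2), 0 (likelihood), 5 (blank code subtracted), 0 (volume), 1 (stricter gate), 16 (upper quartile) and 0 (without large cells). In neural cells 41 became 13 (DESeq2), 0 (Fabp7 and Slc1a3 cells alone), 21 (likelihood) and 25 (volume).

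Between groups, endothelial calls went from 19 to 32 (volume), and from 1 to 21 on leaving out an E9.5 section. Car2 and Bpgm calls went from 4 to 31 (DESeq2), 14 (Fabp7 and Slc1a3 cells as neural), 7 (blank subtracted), 26 (volume), 10 (stricter gate) and 16 (upper quartile), and from 2 to 17 on leaving out a section. Mesenchyme calls went from 26 to 43 (DESeq2), 16 (upper quartile) and 6 to 11 on leaving out a section; neural calls from 12 to 5 (Fabp7 and Slc1a3 cells) and 1 to 18. Interaction calls went from 1 to 0 (Fabp7 and Slc1a3 cells, or neurons, as neural), 4 (blank) and 13 (stricter gate) for endothelial cells. For Car2 and Bpgm cells they went from 2 to 6 (20 counts per cell, or without large cells), 14 (DESeq2), 41 (likelihood), 22 (blank), 0 (neurons as neural), 11 (volume) and 21 (stricter gate). For mesenchyme 0 became 1 (DESeq2), 4 (likelihood), 8 (blank), 8 (volume), 9 (stricter gate) and 3 (upper quartile), and for neural cells 12, 18, 18, 14, 22 and 5, with 1 without large cells.

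Under the alternatives run, the 4 genes kept their direction in Car2 and Bpgm cells, in its interaction with stage, and in stage over all kept cells and in endothelial cells, apart from Dut over all kept cells. Dut there ranged from -0.57 to 0.052 on leaving out an E9.5 section, Rrm2 from -2.19 to -1.46, H2afz from -1.95 to -1.14 and Pclaf from -1.14 to -0.99. DESeq2 called Rrm2 (-1.90), H2afz (-1.62) and Pclaf (-1.11) for stage. In Car2 and Bpgm cells Rrm2 was called with upper-quartile factors (2.39), DESeq2 (2.16) and a stricter gate (3.55), and ranged from 2.61 to 3.08 on leaving out a section. Dut was called with upper-quartile factors (2.29) and DESeq2 (1.93). Pclaf there ranged from 0.0039 to 1.36 over the alternatives and H2afz from 0.10 to 1.39. Their lowest estimates thus kept the sign but lay close to no difference. The interaction was called for Rrm2 with DESeq2 (3.94), blank subtraction (4.56), 20 counts per cell (4.27), without large cells (4.28) and with likelihood assignment (3.05), for Dut with a stricter gate (3.05) and likelihood (2.85), and for Pclaf with a stricter gate (3.12). Top2a for stage turned positive with upper-quartile factors (0.35), DESeq2 (0.063) and without large cells (0.0042), ranged from -0.37 to 0.95 on leaving out a section, and in endothelial cells from -0.036 to 3.36. By size alone 3 genes at least 2-fold lower at E15.5 became 1 without low Gnas.

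Without classes of depth the odds ratio with Top2a in E9.5 section 2 became 1.63 for H2afz and 1.49 for Rrm2, and 2 genes reached 2 in each E9.5 section in place of 1. In section 1, 2 genes also did with 2 or more counts of the gene, and in section 2 thinned cells gave 0, with Dut at 1.76. Dut with Rrm2 over tiles was 0.870 and 0.949 in tiles of 100 and 400 units and 0.634 in tiles with under 10% Car2 and Bpgm cells, and Pclaf with Top2a 0.777 and 0.911. Neurons or Fabp7 and Slc1a3 cells in place of neural cells, size alone, tiles by share of Car2 and Bpgm cells, co-detection inside low Gnas areas and the splits of Car2 and Bpgm cells were chosen after seeing the data. Stage in neurons alone gave no test, since E9.5 section 1 had none. No paired analysis was possible because the stages come from different embryos and E15.5 has 1 section.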

Other observations

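DNA synthesis RNA was also high outside the tiles rich in Car2 and Bpgm cells at E15.5. It was noticed on the map and is described by a limit set after its values were seen, tiles with under 1% Car2 and Bpgm cells and Rrm2 of at least 3000 CPM, so Rrm2 itself is no result there. There were 27 such tiles with 1948 cells, in 7 patches, of which the largest held 21 tiles. H2afz stood at 5039 CPM in these cells (411 counts) against 1019 CPM in the other 620 tiles with under 1%. Pclaf was at 3261 against 1150 CPM, Dut at 4046 against 1455 and Top2a at 23968 against 7561. Fabp7, a gene of neural progenitors and glia, was at 9109 against 2696 CPM, and Meis2, a homeobox gene, at 34340 against 16988. Of the 3 neuronal markers, Stmn2 was at 8484 against 29838 CPM, Tubb2b at 21712 against 14219 and Scn3a at 429 against 1545. Cdkn1c, the inhibitor of cell division, was at 4095 against 37548 CPM, H19 at 31239 against 142423 and Hmgb2 at 539 against 577. Of these cells 77.9% were unassigned, against 54.2%. Median counts per cell were 28 against 98; the part of this lower depth in the values was not tested.

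Car2 and Bpgm cells at E15.5 were not uniform. Split after their values were seen by which marker had more counts, the 5548 cells with more Car2 held Rrm2 at 8925 CPM, Dut at 13577, Pclaf at 3688, H2afz at 3214 and Top2a at 36609. In the 580 cells with more Bpgm these genes were at 1937, 3035, 1474, 1416 and 10839 CPM. Cdkn1a, an inhibitor of cell division, went the other way, at 676 CPM in cells with more Car2 and 3295 in cells with more Bpgm. Median counts per cell were 55 and 47. In E9.5 section 2 the same split gave 53 and 29 cells, with Rrm2 at 4712 and 4442 CPM.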
